A study of Mus musculus musculus x Mus musculus castaneus with 8 samples.

Results

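The expression of 44 genes that act in mitosis was followed in mouse tail fibroblasts under 4 drug conditions. The genes were chosen by name and cover the spindle checkpoint, the kinetochore, the kinases of mitotic entry, the machinery of anaphase, condensin and other chromosome proteins, cytokinesis, and the spindle and centrosome. All 44 were found among the 24421 genes of the count table, and all 44 had enough reads to be tested. They lie on 15 chromosomes, 9 of them on chromosome 2 and none on the X.

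The cells were female tail fibroblasts from an F1 cross between Mus musculus and Mus castaneus, plated on 15 cm dishes and harvested after 72 h. Drugs went into the medium 24 h after plating. Untreated cells received the solvent DMSO alone. A second group received 5azadC, the nucleoside 5-aza-2'-deoxycytidine, which blocks DNA methylation. Another received VX680, an inhibitor of the Aurora kinases, and the last received 5azadC and VX680 together, with the volume of solvent matched across the 4 groups. Each group had 2 libraries of directional total RNA sequencing. The labels give no drug concentration, and they do not say whether the 2 replicates of a group were separate cultures, whether the cells descend from 1 clone or from how many animals they came. The p-values therefore measure only the spread between these libraries, which may be technical.

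In mitosis, cyclin A and cyclin B drive the kinase Cdk1, condensin compacts the chromosomes, and each kinetochore couples a centromere to spindle microtubules. The spindle checkpoint, built from Bub and Mad proteins, holds back the anaphase-promoting complex until all kinetochores are attached. That complex then marks securin and cyclin B for destruction, separase cuts cohesin, and the central spindle and the contractile ring divide the cell. Aurora A acts at centrosomes and spindle poles, and Aurora B at centromeres and the central spindle. Many of these genes are transcribed only in the late part of the cell cycle, so in a bulk sample fewer cells in that phase and less RNA per cell cannot be told apart.

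The libraries held between 6908503 and 11169532 reads in genes, and the 44 genes took from 0.464% to 0.707% of them. Counts of a single member ranged from 37 reads (Ube2s) to 8452 (Mki67), and only Ube2s had under 100 reads in any library. Levels are given as CPM, reads per 1000000 reads of the library, after scaling for library composition. Summed over the 44 genes they were 5915 and 5493 CPM in untreated replicates 1 and 2, 5571 and 4904 with 5azadC, 6463 and 6638 with VX680, and 6575 and 6781 with both drugs. All 4 libraries that received VX680 were therefore above the 4 that did not. Replicate 1 was above replicate 2 in 36 of 44 members in untreated cells and in 37 with 5azadC, against 19 with VX680 and 12 with both drugs. The 5azadC replicates also stood furthest apart over all genes, at 19.9 times counting error as chi-square per degree of freedom, against 7.5, 3.02 and 2.74 in the untreated, VX680 and combination groups. Results that rest on one of these libraries are given with and without it.

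Fibroblast markers were abundant in every library, at a summed 15020 to 39730 CPM over 9 genes. The sum differed between the groups: it was 34978 and 39730 CPM in untreated cells, 23093 and 26850 with 5azadC, 17795 and 18087 with VX680, and 15568 and 15020 with both. The fall was mostly in collagen genes, Col1a1 going from 12429 and 15550 CPM in untreated cells to 1929 and 1840 with both drugs, while Vim went from 3558 and 4072 to 6924 and 6690. Of the 9 genes, 2 rose and 4 fell with 5azadC, and 3 rose and 5 fell with VX680 and with both drugs. Most markers of other cell types were at or near 0. The 6 endothelial markers summed to 12.2 and 13.8 CPM in untreated cells, 33.9 and 34.4 with 5azadC, 88.3 and 96.4 with VX680, and 76.3 and 66.9 with both drugs. Flt1 made up most of that sum, while Kdr and Cdh5 stayed under 1 CPM in all 8 libraries. Vwf went from 0.54 and 0.15 CPM in untreated cells to 3.5 and 3.6 with VX680. Of the 4 endothelial markers with enough reads, 1 rose with 5azadC, 4 with VX680 and 1 with both drugs, and 0 fell. Over all libraries the leukocyte markers summed to 15.7 to 25.03 CPM, with Cd3e at 0, and the keratinocyte markers to 1.36 to 2.93 CPM. The leukocyte sum joined opposite changes. Cd68 went from 5.17 and 5.13 CPM in untreated cells to 22.1 and 13.7 with both drugs. Lyz2 went from 13.7 and 10.3 to 2.39 and 5.11. Of these 2, the leukocyte markers with enough reads, 1 rose with each treatment, and 1 fell with VX680 and with both. Melanocyte markers summed to 26.1 to 44.03 CPM, with Tyr at 0. Of the 2 melanocyte markers with enough reads, 1 fell with 5azadC and with both drugs, and 0 were called with VX680. Muscle markers summed to 21.4 and 19.9 CPM in untreated cells, 42.6 and 49.5 with 5azadC, 30.9 and 34.9 with VX680, and 34.3 and 32.4 with both drugs, mostly from Acta1, and of the 3 with enough reads 2, 3 and 2 rose with 5azadC, VX680 and both. The part of these shifts in the results below was not tested.

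Exons of 13 members overlap a gene on the opposite strand in the GENCODE vM21 annotation, among them Ube2c with Tnnc2, Nusap1 with Oip5, Prc1 with Rccd1, Ccna2 with Exosc9, Ncapg with Lcorl, and Ube2s with Rpl28. The libraries marked strand, but whether reads were counted by strand is not given in the sources used here, so these values can include reads of the partner. Ccnb1 and Ccnb2 have pseudogenes, which also makes their counts uncertain, in a direction that was not tested.

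With VX680 alone, 16 of the 44 genes rose and 3 fell, against 23.8% of 12643 tested genes that rose and 22.4% that fell (46.1% called either way). The members' median log2 fold change was 0.21 and that of all tested genes 0.01. The rises were largest in Pttg1, Nek2, Hmmr, Cenpa and Ube2c. Pttg1, with the largest rise, reached 1.84 times its untreated level. Without untreated replicate 2 the number of rises was 10 in place of 16, and without untreated replicate 1, VX680 replicate 1 or VX680 replicate 2 the number of falls was 1 in place of 3. A gene was called when its adjusted p was under 0.05.

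With both drugs, 22 members rose and 2 fell, where 28.4% of all tested genes rose and 27.3% fell (55.7% either way). The members' median was 0.27, against 0.01 for all genes. These comparisons share the untreated libraries. Without combination replicate 2 the rises numbered 13. The 2 falls became 1 without untreated replicate 2, either VX680 replicate or combination replicate 2, and 0 without combination replicate 1.

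With 5azadC alone the balance ran the other way: 3 members rose (Pttg1, Bub3 and Espl1) and 8 fell (Spc25, Nusap1, Casc5, Spc24, Mki67, Ncaph, Bub1b and Top2a). Over all tested genes 22.6% rose and 19.6% fell (42.2% either way), and the members' falls were near that background. Their median was -0.04, against 0.00. The 3 rises were reduced to 0 without untreated replicate 2 or 5azadC replicate 1. The 8 falls became 4 without untreated replicate 1 or 5azadC replicate 2, and 5 without either VX680 replicate, which enter the shared estimate of spread. A fit on the 4 untreated and 5azadC libraries alone called 1 rise and 3 falls, and DESeq2 called 1 rise and 6 falls.

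Over the 3 comparisons with untreated cells, 23 members were called higher at least once and 8 lower at least once. In both directions there were 0, and 13 were called in none. Among all tested genes 42.2% were called with 5azadC, 46.1% with VX680 and 55.7% with both drugs. Their share called at least once was not counted but cannot be under 55.7%. Scaling mattered for the balance of all genes but less for the members relative to it. On the authors' own scaling the median of all genes shifted from 0.01 to 0.12 with VX680, and the share of called genes that were higher went from 51.5% to 63.0%. The members then gave 21 rises and 1 fall, where 3646 of the 12643 tested genes rose and 2144 fell. The members' median lay 0.21 above that of all genes, against 0.20 with the scaling used here. With both drugs the authors' scaling gave 27 rises and 1 fall among the members, with 59.0% of called genes higher in place of 50.9%. On that scaling 4146 of the 12643 tested genes rose and 2883 fell. With both drugs the members' median stood 0.26 above that of all genes under each scaling. No member call against untreated cells changed direction under any alternative tried.

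**Figure D1:**
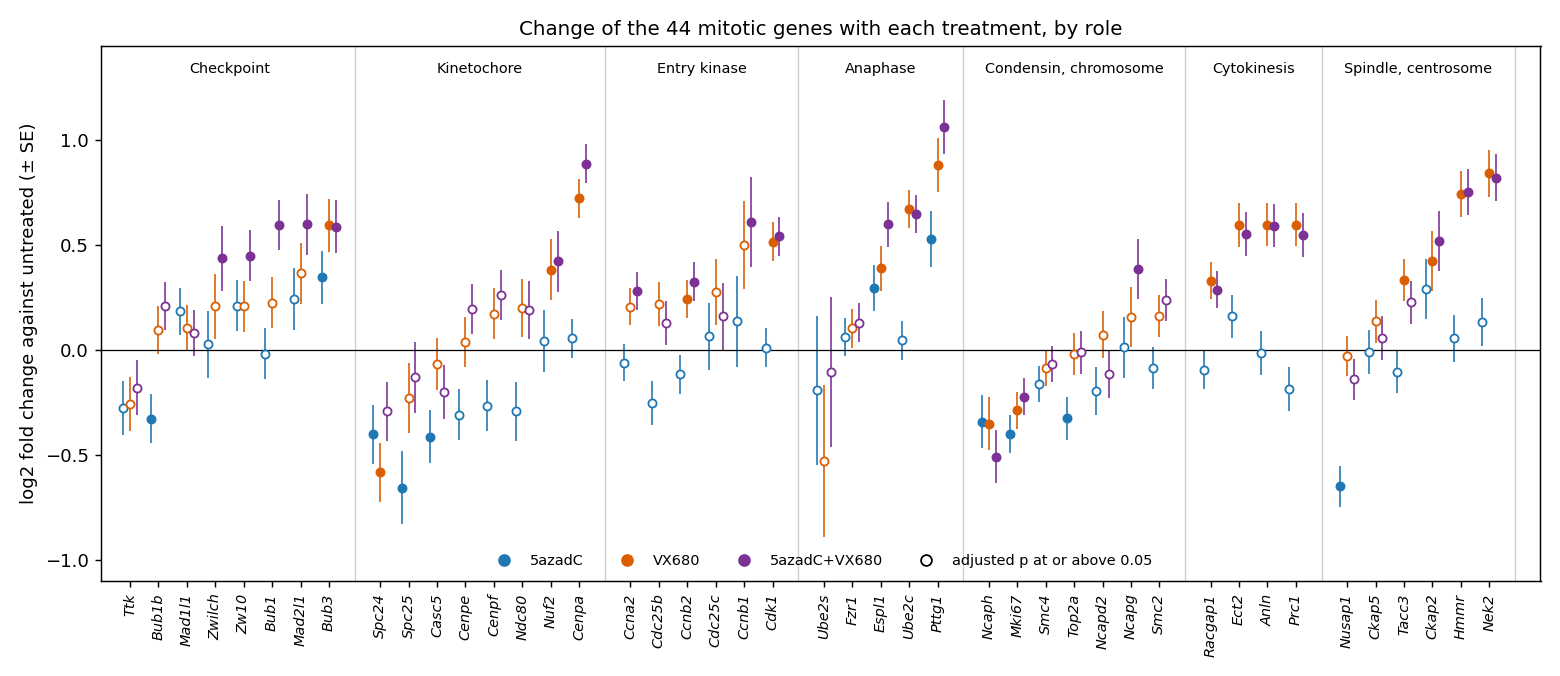
Log2 fold change against untreated cells (± SE, 2 libraries per group) of each of the 44 genes, grouped by role, for 5azadC (blue), VX680 (orange) and both drugs (purple); filled points have an adjusted p under 0.05. The 4 cytokinesis genes are called higher with VX680 and with both drugs, and the kinetochore and condensin groups hold most of the falls.

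Among the 8 checkpoint genes, 1 rose with VX680, 5 rose with both drugs, and with 5azadC 1 rose and 1 fell. Beside the counts of this and each later role group, 22.6% of all tested genes rose and 19.6% fell with 5azadC. With VX680 the shares were 23.8% and 22.4%, and with both drugs 28.4% and 27.3%. No role group was tested against them. Bub1 (chromosome 2), the kinase that recruits other checkpoint proteins to the kinetochore, measured 31.9 and 30.05 CPM in untreated cells, 30.7 and 30.7 with 5azadC, 35.5 and 37.2 with VX680, and 45.8 and 48 with both drugs. The combination libraries were highest and the VX680 pair next, above all 4 libraries without VX680, while the untreated and 5azadC libraries overlapped. The log2 change of Bub1 was 0.60 ± 0.12, adjusted p = 0.000822 with both drugs and 0.23 ± 0.12, adjusted p = 0.141 with VX680. Bub3 (chromosome 7), the binding partner of Bub1 and BubR1, had 105 and 88.5 CPM in untreated cells, 124 and 123 with 5azadC, 134 and 160.2 with VX680, and 162 and 131 with both drugs. Every drug-treated library was above both untreated ones, and Bub3 rose by 0.35 ± 0.13, adjusted p = 0.0399 with 5azadC, by 0.59 ± 0.13, adjusted p = 0.0016 with VX680 and by 0.59 ± 0.13, adjusted p = 0.00131 with both.

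Mad2l1 (chromosome 6), which encodes the checkpoint effector Mad2, gave 40.9 and 29 CPM in untreated cells, 41.4 and 42.5 with 5azadC, 44.6 and 46.7 with VX680, and 56.1 and 51.2 with both drugs. Its untreated replicates differed more than any other pair, and all drug-treated libraries were above them. Mad2l1 rose with both drugs (0.60 ± 0.15, adjusted p = 0.00317), while VX680 gave 0.37 ± 0.15, adjusted p = 0.0533. Zw10 and Zwilch, subunits of the RZZ complex that brings Mad1 and Mad2 to kinetochores, rose with both drugs (0.45 ± 0.12, adjusted p = 0.00645 and 0.44 ± 0.16, adjusted p = 0.0288). Without combination replicate 2 their adjusted p was 0.0858 and 0.183, and without untreated replicate 2 that of Zwilch was 0.215. Bub1b, the gene of BubR1, was the one checkpoint gene to fall, with 5azadC (-0.33 ± 0.12), from 128 and 115 CPM to 108 and 86.3.

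That fall of Bub1b was lost without untreated replicate 1 (adjusted p = 0.182), without 5azadC replicate 2 (0.169) or without any of the 4 libraries that received VX680 (from 0.052 to 0.0597). The 5azadC call of Bub3 was lost without untreated replicate 2 (0.274), 5azadC replicate 1 (0.0624) or 5azadC replicate 2 (0.0534). Mad1l1, the gene of the Mad2 anchor Mad1, and Ttk, the gene of the Mps1 kinase at the top of the checkpoint, passed the test in none of the 3 comparisons.

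Of the 8 kinetochore genes, 3 fell with 5azadC, 2 rose and 1 fell with VX680, and 2 rose with both drugs. The rises were near the shares of all tested genes, 23.8% with VX680 and 28.4% with both. Falls over all genes were 19.6% with 5azadC and 22.4% with VX680. Cenpa (chromosome 5), the histone H3 variant that marks the centromere, measured 105 and 94.2 CPM in untreated cells, 99.8 and 107 with 5azadC, 165 and 164 with VX680, and 183 and 186 with both drugs. Its untreated and 5azadC libraries overlapped, and all 4 libraries with VX680 were far above them. Cenpa had the smallest adjusted p of any member with VX680 (0.72 ± 0.09, adjusted p = 2.96e-05) and with both drugs (0.89 ± 0.09, adjusted p = 2.77e-06). Nuf2, a subunit of the microtubule-binding Ndc80 complex, rose with VX680 (0.38 ± 0.14, adjusted p = 0.0439) and with both drugs (0.42 ± 0.15, adjusted p = 0.0246).

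The partners of Nuf2 in the Ndc80 complex showed other patterns. Spc24 (chromosome 9) gave 37.3 and 45.7 CPM in untreated cells, 29.5 and 33.1 with 5azadC, 27.8 and 27.3 with VX680, and 32.2 and 35.2 with both drugs. The untreated libraries were the highest and the VX680 libraries the lowest. Spc24 fell with 5azadC (-0.40 ± 0.14, adjusted p = 0.0331) and with VX680 (-0.58 ± 0.14, adjusted p = 0.0039), and its value with both drugs was -0.29 ± 0.14, adjusted p = 0.0914. Spc25 (chromosome 2), its partner in the part of the complex that faces the chromosome, had 37.8 and 38 CPM in untreated cells, 19 and 29.5 with 5azadC, 30.8 and 34 with VX680, and 34.6 and 34.6 with both drugs. The 5azadC libraries were the lowest and lay far apart from each other. Spc25 fell with 5azadC (-0.66 ± 0.17, adjusted p = 0.00805) and gave -0.23 ± 0.17, adjusted p = 0.29 with VX680. Ndc80 itself had values of -0.29 ± 0.14, 0.20 ± 0.14 and 0.19 ± 0.14 with 5azadC, VX680 and both drugs, with adjusted p of 0.111, 0.254 and 0.263.

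Casc5, the gene of the scaffold Knl1 that binds Bub1, fell with 5azadC (-0.41 ± 0.13, adjusted p = 0.0182) from 68.9 and 58.5 to 52.95 and 42.8 CPM. The motor Cenpe and the large coiled-coil protein Cenpf passed the test in none of the comparisons with untreated cells. Several of these calls were not kept when a single library was left out. The VX680 call of Nuf2 was lost without either untreated replicate (adjusted p = 0.279 and 0.0536), either VX680 replicate (0.232 and 0.0922) or either combination replicate (0.0553 and 0.0563). Its call with both drugs went without untreated replicate 1 (0.188) or combination replicate 2 (0.193), and under DESeq2 Nuf2 passed in neither (0.131 and 0.077). The 5azadC falls were lost for Spc25 without 5azadC replicate 1 (0.077), for Casc5 without untreated replicate 1 (0.154) or 5azadC replicate 2 (0.0835), and for Spc24 without untreated replicate 2 (0.216), 5azadC replicate 1 (0.144) or either VX680 replicate (0.0531 and 0.0526).

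None of the 6 genes of mitotic entry passed the test with 5azadC. With VX680 2 rose and with both drugs 4, where 23.8% and 28.4% of all tested genes rose. Cdk1 (chromosome 10), the mitotic kinase, measured 159.8 and 150.2 CPM in untreated cells, 165 and 148 with 5azadC, 223 and 221 with VX680, and 218 and 234 with both drugs. The 4 libraries with VX680 lay close together and all above the other 4. Cdk1 rose by 0.52 ± 0.09, adjusted p = 0.000437 with VX680 and by 0.54 ± 0.09, adjusted p = 0.00021 with both drugs, and its 5azadC value was 0.01 ± 0.09. The cyclin B2 gene Ccnb2 (chromosome 9) had 135 and 123 CPM in untreated cells, 121 and 117 with 5azadC, 149 and 157 with VX680, and 158 and 165 with both drugs. Its order was that of Cdk1, with a narrower gap.

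Ccnb2 rose with VX680 (0.24 ± 0.09, adjusted p = 0.0415) and with both drugs (0.33 ± 0.09, adjusted p = 0.00776). Ccna2 (chromosome 3), which encodes cyclin A2, gave 237 and 216 CPM in untreated cells, 223 and 212 with 5azadC, 270.1 and 253 with VX680, and 269.7 and 281 with both drugs. All libraries with VX680 were again the higher ones; Ccna2 rose with both drugs (0.28 ± 0.09, adjusted p = 0.0159) and gave 0.21 ± 0.09, adjusted p = 0.0722 with VX680 alone. Ccnb1, the gene of cyclin B1, rose with both drugs (0.61 ± 0.21, adjusted p = 0.0256) from 13.4 and 15.5 to 17.4 and 26.5 CPM, a pair of values that lie far apart. The phosphatase genes Cdc25b and Cdc25c, whose products activate Cdk1, passed in none of the 3 comparisons.

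The calls of the cyclin genes were the less stable ones. Without combination replicate 2 the adjusted p with both drugs was 0.115 for Ccna2, 0.0703 for Ccnb2 and 0.373 for Ccnb1. Without untreated replicate 2 it was 0.121 for Ccna2 and 0.0695 for Ccnb2, without untreated replicate 1 0.168 for Ccnb1, and without combination replicate 1 0.0537 for Ccna2. The VX680 call of Ccnb2 was lost without any single untreated, VX680 or combination library, with adjusted p from 0.0534 to 0.236. Cdk1 kept both calls under every alternative tried.

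Of the 5 anaphase genes, 3 rose with VX680 and with both drugs, and 2 of these also rose with 5azadC. Over all tested genes 23.8%, 28.4% and 22.6% rose in these comparisons. Pttg1 (chromosome 11) encodes securin, the inhibitor of separase, and measured 43.5 and 36.1 CPM in untreated cells, 64.8 and 50.6 with 5azadC, 74.3 and 73.4 with VX680, and 81.3 and 86.2 with both drugs. The groups did not overlap and stood in the order untreated, 5azadC, VX680, both drugs. Pttg1 rose by 0.53 ± 0.13, adjusted p = 0.0055 with 5azadC, by 0.88 ± 0.13, adjusted p = 9.81e-05 with VX680 and by 1.06 ± 0.13, adjusted p = 1.21e-05 with both drugs, when it reached 2.09 times its untreated level. Espl1 (chromosome 15), the gene of separase itself, had 125 and 118 CPM in untreated cells, 166 and 132 with 5azadC, 165 and 154 with VX680, and 185 and 184 with both drugs. Every drug-treated library was above the untreated pair, but 5azadC replicate 1 reached the VX680 level and 5azadC replicate 2 did not.

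Espl1 rose by 0.30 ± 0.11, adjusted p = 0.0424 with 5azadC, 0.39 ± 0.11, adjusted p = 0.00931 with VX680 and 0.60 ± 0.11, adjusted p = 0.000354 with both. Ube2c (chromosome 2), the ubiquitin-conjugating enzyme that starts chains for the anaphase-promoting complex, gave 194 and 192 CPM in untreated cells, 207 and 191 with 5azadC, 313 and 303 with VX680, and 319 and 286 with both drugs. The 4 libraries without VX680 lay close together, well under the lowest with it. Ube2c rose by 0.67 ± 0.09, adjusted p = 4.43e-05 with VX680 and 0.65 ± 0.09, adjusted p = 3.78e-05 with both drugs, and gave 0.05 ± 0.09, adjusted p = 0.718 with 5azadC. Ube2s, which extends those chains, was too sparse to rank, and Fzr1, the gene of the activator Cdh1 that takes over after anaphase, had values between 0.06 ± 0.09 and 0.13 ± 0.09; neither was called.

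The 5azadC calls in this group were lost for Pttg1 without untreated replicate 2 (adjusted p = 0.0649) or 5azadC replicate 1 (0.0598), and for Espl1 without any library other than 5azadC replicate 2 (from 0.0674 to 0.373). The VX680 call of Espl1 was lost without untreated replicate 2 (0.0686) or VX680 replicate 1 (0.0922).

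Of the 7 condensin and chromosome genes, 0 rose and 2 fell with VX680, 3 fell with 5azadC, and with both drugs 1 rose and 2 fell. Over all tested genes 22.4%, 19.6% and 27.3% fell in these comparisons, and the role groups were not tested against each other. Mki67 (chromosome 7), the proliferation marker Ki-67 that coats mitotic chromosomes, measured 766 and 753 CPM in untreated cells, 618 and 534 with 5azadC, 632 and 613 with VX680, and 658 and 645 with both drugs. The untreated libraries were the highest, well clear of the other 6. Mki67 fell with 5azadC (-0.40 ± 0.09, adjusted p = 0.00268), with VX680 (-0.29 ± 0.09, adjusted p = 0.0169) and with both drugs (-0.22 ± 0.09, adjusted p = 0.0477). Ncaph (chromosome 2), the kleisin that closes the condensin I ring, had 96.7 and 89.6 CPM in untreated cells, 83.6 and 63.2 with 5azadC, 70.3 and 76 with VX680, and 61.9 and 69.3 with both drugs. Untreated cells were highest here too; Ncaph fell with 5azadC (-0.34 ± 0.13, adjusted p = 0.044), VX680 (-0.35 ± 0.13, adjusted p = 0.0351) and both (-0.51 ± 0.13, adjusted p = 0.0041).

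Ncapg (chromosome 5), a HEAT-repeat subunit of the same complex, went the other way with 58.8 and 46.2 CPM in untreated cells, 59.3 and 47 with 5azadC, 57.5 and 60.3 with VX680, and 62.8 and 75.2 with both drugs. The combination libraries were the highest, and the other 6 overlapped. Ncapg rose with both drugs (0.39 ± 0.14, adjusted p = 0.0345), so subunits of one complex were called in opposite directions. Top2a (chromosome 11), the topoisomerase that untangles sister chromatids, gave 502 and 439.6 CPM in untreated cells, 402 and 349.7 with 5azadC, 447 and 484 with VX680, and 444 and 491 with both drugs. Its 5azadC libraries were the 2 lowest, and Top2a fell with 5azadC alone (-0.33 ± 0.10, adjusted p = 0.0197). Smc2 and Smc4, the ATPase pair of condensin, and Ncapd2, the second HEAT-repeat subunit, passed in no comparison with untreated cells.

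Mki67 kept its 5azadC fall under every alternative. Its fall with both drugs was lost without any untreated, VX680 or combination library (adjusted p from 0.0789 to 0.182) and on the authors' scaling (0.301). Its fall with VX680 was lost without untreated replicate 1 (0.0553), VX680 replicate 1 (0.0785), VX680 replicate 2 (0.121) or on the authors' scaling (0.128). Ncaph lost its 5azadC call without any library but 5azadC replicate 1 (from 0.0601 to 0.24), its VX680 call without any untreated or VX680 library (from 0.0567 to 0.203) and its combination call without combination replicate 1 (0.0527). Top2a lost its call without untreated replicate 1 (0.141) or 5azadC replicate 2 (0.0547). Ncapg lost its call without untreated replicate 2 (0.273), combination replicate 2 (0.284) or either VX680 replicate (0.0545 and 0.0548).

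All 4 cytokinesis genes rose with VX680 and with both drugs, where 23.8% and 28.4% of all tested genes rose. None passed the test with 5azadC. Anln (chromosome 9) encodes anillin, the scaffold of the contractile ring, and measured 323 and 289 CPM in untreated cells, 332 and 275 with 5azadC, 455 and 473 with VX680, and 446 and 479.8 with both drugs. The 4 libraries with VX680 were all well above the other 4. Anln rose by 0.60 ± 0.10, adjusted p = 0.000323 with VX680 and by 0.59 ± 0.10, adjusted p = 0.000238 with both drugs. Prc1 (chromosome 7), which bundles the microtubules of the central spindle, had 164 and 143 CPM in untreated cells, 146 and 125 with 5azadC, 222 and 244 with VX680, and 228 and 223 with both drugs. It rose by 0.60 ± 0.10, adjusted p = 0.000369 and 0.55 ± 0.10, adjusted p = 0.00053, with no overlap between libraries with and without VX680.

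Ect2 (chromosome 3), the exchange factor that switches on RhoA at the division plane, gave 90.6 and 79.4 CPM in untreated cells, 99.1 and 91.3 with 5azadC, 127 and 131 with VX680, and 118 and 132 with both drugs. Again the VX680 and combination libraries held the 4 highest values; Ect2 rose by 0.60 ± 0.10, adjusted p = 0.000347 and 0.55 ± 0.10, adjusted p = 0.000476. Racgap1, a subunit of the centralspindlin complex and a partner of Ect2, rose less, by 0.33 ± 0.09, adjusted p = 0.00769 and 0.29 ± 0.09, adjusted p = 0.014. Its VX680 call was lost without untreated replicate 2 (adjusted p = 0.0617) or VX680 replicate 2 (0.0766), and its combination call without untreated replicate 2 (0.0883) or combination replicate 2 (0.139).

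Of the 6 spindle and centrosome genes, 4 rose with VX680, 3 rose with both drugs, and 1 fell with 5azadC. The shares of all tested genes were 23.8%, 28.4% and 19.6%, and the 1 fall was near its share. Nek2 (chromosome 1), a kinase that separates the centrosomes, measured 44.3 and 42.5 CPM in untreated cells, 50.9 and 44.3 with 5azadC, 79.9 and 75.9 with VX680, and 72.5 and 81.1 with both drugs. All 4 libraries with VX680 were above all 4 without it, and Nek2 rose by 0.84 ± 0.11, adjusted p = 3.66e-05 with VX680 and 0.82 ± 0.11, adjusted p = 3.01e-05 with both drugs. Hmmr (chromosome 11), a microtubule-binding protein of the spindle poles, had 57.7 and 49.4 CPM in untreated cells, 58.5 and 53.2 with 5azadC, 90.7 and 89.5 with VX680, and 86.2 and 94.9 with both drugs. The separation was as clean, with rises of 0.74 ± 0.11, adjusted p = 9.12e-05 and 0.75 ± 0.11, adjusted p = 5.74e-05.

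Nusap1 (chromosome 2), which bundles microtubules near the chromosomes, behaved differently and gave 89.4 and 80.6 CPM in untreated cells, 54.5 and 54 with 5azadC, 83.8 and 83.5 with VX680, and 78.5 and 76.2 with both drugs. The 5azadC pair alone was low, with a wide gap to every other library. Nusap1 fell with 5azadC (-0.65 ± 0.10, adjusted p = 0.000153), and with VX680 (-0.03 ± 0.10, adjusted p = 0.841) and both drugs (-0.14 ± 0.10, adjusted p = 0.238) it was not called. Ckap2, a microtubule-associated protein, rose with VX680 (0.42 ± 0.14) and both drugs (0.52 ± 0.14), and Tacc3, a partner of Aurora A on spindle microtubules, rose with VX680 (0.34 ± 0.10). Both VX680 calls were lost without untreated replicate 2 (adjusted p = 0.235 and 0.142) or VX680 replicate 2 (0.186 and 0.129). The combination call of Ckap2 was lost without untreated replicate 2 (0.0912) or combination replicate 2 (0.0712). Ckap5, the microtubule polymerase, was called nowhere.

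**Figure D2:**
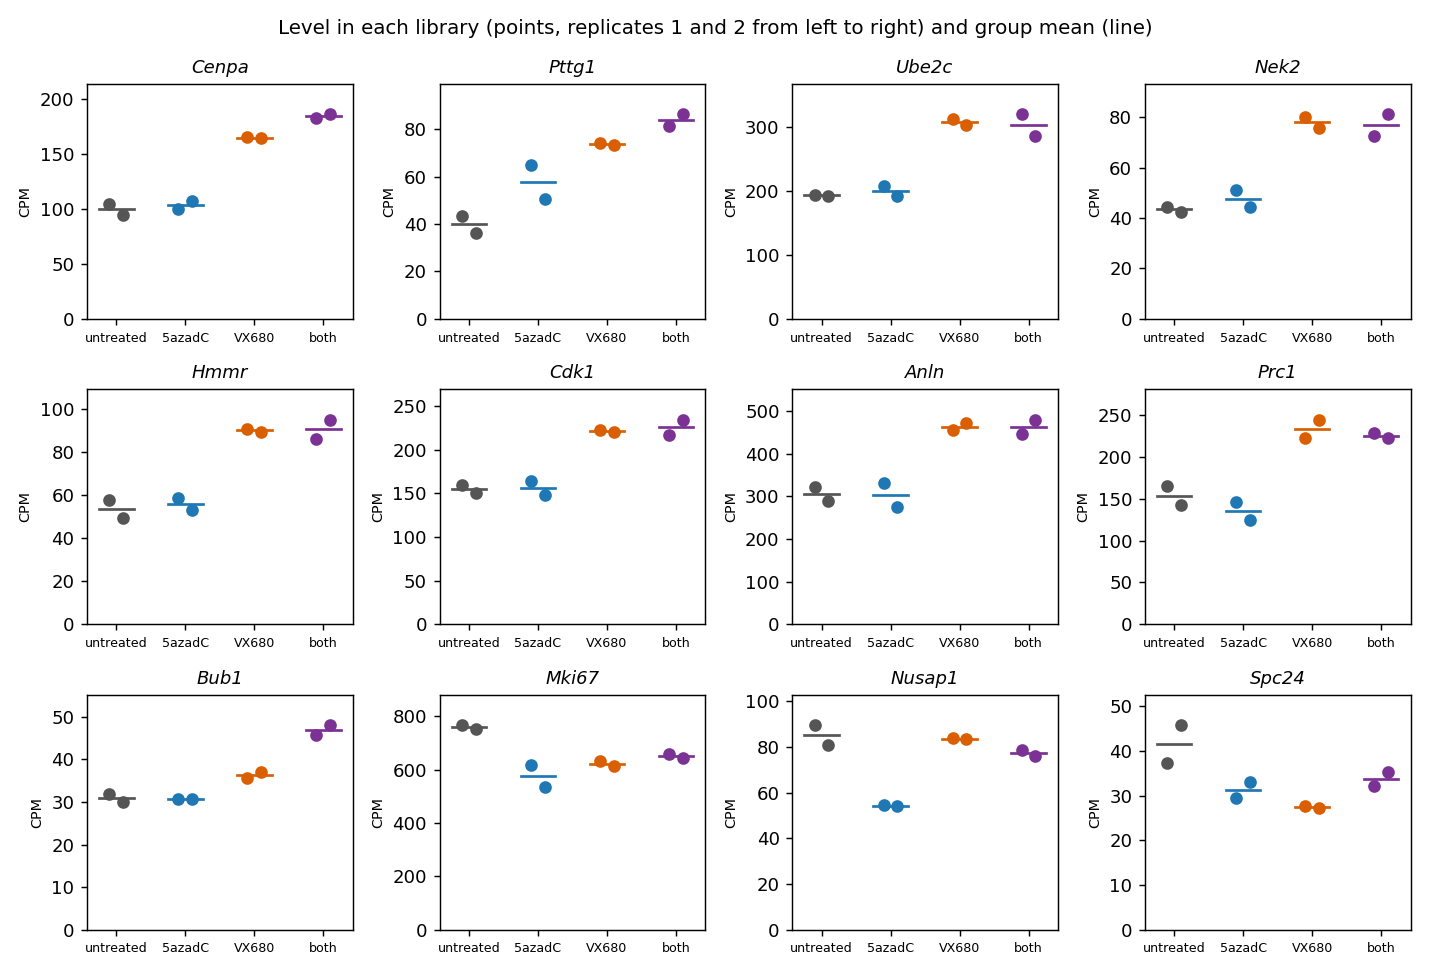
CPM in each of the 8 libraries (points) with the group mean (line) for 12 of the genes, each axis starting at 0. In the first 8 panels except Pttg1 the untreated and 5azadC libraries lie together below the VX680 and combination libraries, while Nusap1 is low with 5azadC alone and Mki67 and Spc24 are highest in untreated cells.

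The design also allows the drugs to be set against each other. Between VX680 and 5azadC, 16 members were higher with VX680 and 0 lower, against 6.47% and 9.33% of all tested genes (15.8% either way). The members' median was 0.32, against -0.01 for all genes. No member was lower at an unadjusted p under 0.05 or by DESeq2 or limma either. The share of all genes lower at that unadjusted p was not counted. The list includes all 4 cytokinesis genes, with Prc1 foremost (0.78 ± 0.10, adjusted p = 0.000215), and Cdc25b (0.47 ± 0.11, adjusted p = 0.00802), Bub1b (0.42 ± 0.12, adjusted p = 0.0235) and Nusap1 (0.62 ± 0.10, adjusted p = 0.000795), which had not risen against untreated cells. Leaving out VX680 replicate 1 or 2 reduced the 16 to 9 and 8. Without VX680 replicate 2 Bub1b had an adjusted p of 0.233, without replicate 1 of 0.0643 and without 5azadC replicate 2 of 0.0907; Cdc25b had 0.0805 and 0.0624 without VX680 replicates 1 and 2. On the authors' scaling the members gave 24 higher and 0 lower, while the share of called genes that were higher went from 40.9% to 62.7%. Of the 12643 tested genes 1230 were then higher and 731 lower.

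Adding VX680 to 5azadC raised 23 members and lowered 0, where 9.98% of all tested genes rose and 14.8% fell (24.8% either way). The median was 0.38 over the members and 0.00 over all genes. The largest differences were in Cenpa (0.83 ± 0.09, adjusted p = 3.26e-05), Prc1 (0.73 ± 0.11, adjusted p = 0.00024), Hmmr (0.70 ± 0.11, adjusted p = 0.000489), Nek2 (0.69 ± 0.11, adjusted p = 0.000583) and Bub1 (0.61 ± 0.12, adjusted p = 0.00234). Of the 8 kinetochore genes 5 rose here, including Cenpe, Cenpf, Ndc80 and Spc25, which had not risen against untreated cells. At an unadjusted p under 0.05 and by DESeq2 and limma no member was lower, but the share of all genes at that unadjusted p was not counted. Without combination replicate 2 the 23 rises became 11, and Cenpe and Cenpf then had adjusted p of 0.0841 and 0.0822. Ndc80 lost its call without either combination replicate (0.113 and 0.111), and Spc25 without any library other than 5azadC replicate 2 (from 0.0619 to 0.326). Without 5azadC replicate 2, Ncaph was called lower (adjusted p = 0.0372). The authors' scaling gave 28 higher and 0 lower members, with 58.9% of called genes higher in place of 40.2%. Of the 12643 tested genes 1904 were then higher and 1330 lower.

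With 5azadC added to VX680 no member was called by edgeR, where 6.50% of all tested genes were called (2.45% higher and 4.05% lower). The median difference was 0.03 over the members. Bub1 came closest (0.37 ± 0.12, adjusted p = 0.0871) and was the only member with an unadjusted p under 0.05. DESeq2 and limma also called 0 members. A fit on these 4 libraries alone called Bub1 and Espl1 higher and Ncapd2 lower, with adjusted p of 0.0236, 0.0405 and 0.0431. Bub1 was also called higher without 5azadC replicate 1 (0.0462) or replicate 2 (0.0440).

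Counting libraries rather than tests, 22 of the 44 genes had all 4 libraries with VX680 above all 4 without it, against 12.3% of all tested genes. None had the 4 below, against 13.0%. The 22 were Bub1, Bub3, Mad2l1 and Zwilch of the checkpoint, Cenpa, Cenpf and Nuf2 of the kinetochore, Ccna2, Ccnb1, Ccnb2, Cdk1 and Cdc25b of mitotic entry, Ube2c and Pttg1 of anaphase, Smc2 of condensin, all 4 cytokinesis genes, and Tacc3, Hmmr and Nek2 of the spindle. Zwilch was separated only by a margin within rounding, 32.9 CPM on either side. This ordering uses the same libraries as the comparisons above and adds no replicate to them.

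Whether the drugs' log2 changes added up was tested by the interaction, the change with both drugs less the sum of the single changes. It was positive for 3 members and negative for 0, against 4.95% and 10.6% of all tested genes (15.6% either way). The 3 members were Nusap1 (0.54 ± 0.14, adjusted p = 0.0186), Mki67 (0.47 ± 0.13, adjusted p = 0.0234) and Spc24 (0.69 ± 0.20, adjusted p = 0.0323). Each had fallen with 5azadC, and with both drugs lay above the sum of the single changes: for Mki67, for example, the single changes were -0.40 ± 0.09 and -0.29 ± 0.09 and the combined change -0.22 ± 0.09. At an unadjusted p under 0.05, 8 members were positive and 0 negative. The shares of all genes at that unadjusted p were not counted, so these counts have no background beside them. Spc25 (0.75 ± 0.24, adjusted p = 0.0529) stood just outside the adjusted threshold.

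The interaction calls were not kept when some single libraries were left out. Over all tested genes too, fewer interactions were called without any one of the VX680 or combination libraries. Without any one of the VX680 or combination libraries no member was called; without untreated replicate 1 the count was 1, and without 5azadC replicate 1 it was 6. Without 5azadC replicate 2, Pttg1 was called negative (adjusted p = 0.0372). Among members that rose with VX680, Cdk1 (0.01 ± 0.13), Anln (0.01 ± 0.14), Hmmr (-0.05 ± 0.15) and Ube2c (-0.07 ± 0.13) each differed from the sum by less than their SE, which does not by itself show that the changes added up.

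**Figure D3:**
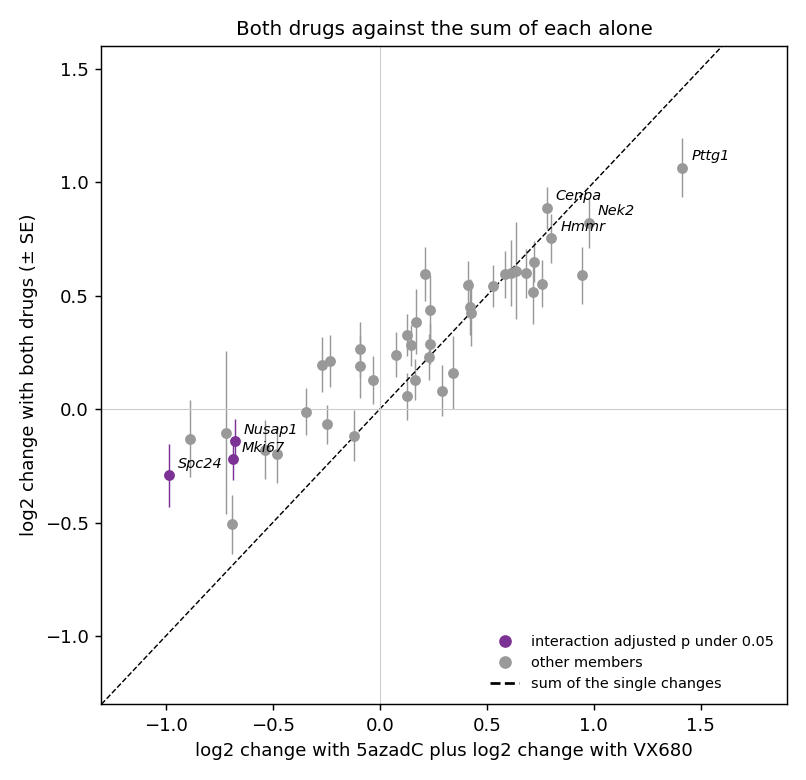
Log2 change with both drugs (vertical axis, ± SE) against the sum of the changes with 5azadC and with VX680 (horizontal axis) for the 44 genes; the dashed line marks equality. Spc24, Mki67 and Nusap1 (purple) lie above the line at negative sums and are the members with an interaction adjusted p under 0.05.

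Levels of different genes were compared only per length, as CPM per kilobase (± SD, 2 libraries). In untreated cells Ube2c led at 209 ± 1.84, well above the next, Fzr1 (91.5 ± 5.79), which was followed by Top2a (90.9 ± 8.53), Ccnb2 (84.2 ± 5.5), Ccna2 (80.8 ± 5.22) and Mki67 (75.5 ± 0.929). From Fzr1 to Ccna2 neighbouring levels lay within their SDs. The lowest were Ccnb1 (6.28 ± 0.65), Bub1 (7.19 ± 0.306) and Ube2s (7.62 ± 2.54), which overlapped. The median member stood at 26.8 CPM per kilobase in untreated cells, 25.3 with 5azadC, 30.3 with VX680 and 30.3 with both. Ube2c kept the top place in all 4 groups and reached 333 ± 7.69 with VX680. Cenpa went from 64.3 ± 4.71 to 106 ± 0.551 with VX680 and 119 ± 1.48 with both drugs, and then exceeded Fzr1 (98.2 ± 4.68 and 100.1 ± 2.55). Fewer reads per length were counted for Ccnb1 than for Ccnb2. The levels were 6.28 ± 0.65 against 84.2 ± 5.5 in untreated cells and 9.53 ± 2.78 against 106 ± 3.05 with both drugs. Because of their pseudogenes, this gap may differ from the one between the transcripts. The condensin ATPases Smc2 (27.8 ± 2.39) and Smc4 (74.7 ± 1.37), which act as a pair, also differed in level in untreated cells.

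**Figure D4:**
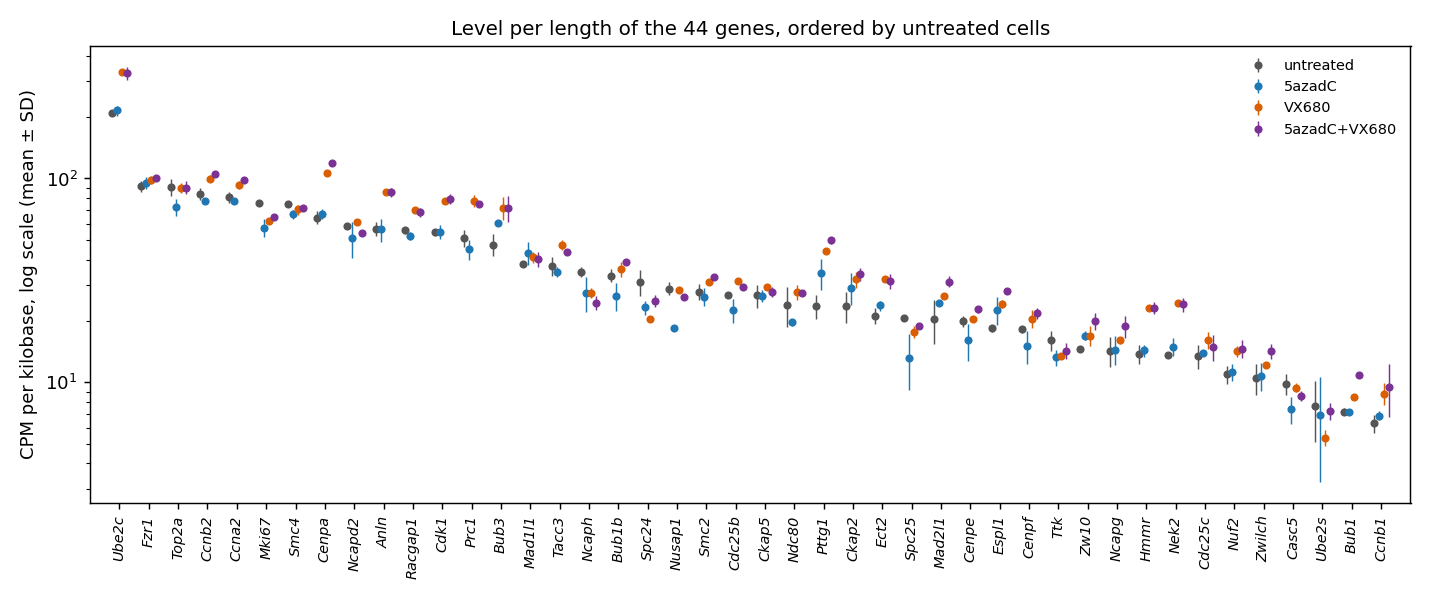
CPM per kilobase of gene length (mean ± SD of 2 libraries, log axis) of the 44 genes in the 4 groups, ordered by the level in untreated cells. Ube2c is highest in every group, and Cenpa, Anln, Cdk1, Pttg1, Hmmr and Nek2 show the VX680 and combination points above the others.

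Other genes of the same pathways were counted from separate lists. Beside these counts, over all tested genes 22.6% rose and 19.6% fell with 5azadC, 23.8% and 22.4% with VX680, and 28.4% and 27.3% with both drugs; no list was tested against that background. Of 22 other centromere and kinetochore genes in the table, 0 rose and 9 fell with 5azadC, 1 rose and 4 fell with VX680, and 2 rose and 4 fell with both drugs. Their median was -0.41, -0.24 and -0.06. Hjurp, the chaperone that deposits Cenpa at centromeres, fell with 5azadC (-0.51 ± 0.09, adjusted p = 0.000522), VX680 (-0.63 ± 0.09, adjusted p = 8.21e-05) and both (-0.58 ± 0.09, adjusted p = 0.000117), while Cenpa rose with VX680 and with both. Cenpo, of the inner kinetochore, also fell with each (-0.43 ± 0.15, -0.54 ± 0.15 and -0.57 ± 0.15), and the satellite-binding protein Cenpb rose with VX680 (0.29 ± 0.09, adjusted p = 0.0223) and with both (0.51 ± 0.09, adjusted p = 0.000365).

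Among 14 subunits and regulators of the anaphase-promoting complex, which include its inhibitor gene Fbxo5, 1 rose and 3 fell with 5azadC and with VX680, and 1 rose and 5 fell with both drugs. The one to rise was the activator Cdc20; the subunit genes Anapc2 (-0.32 ± 0.09, adjusted p = 0.00969 with VX680) and Anapc5 (-0.33 ± 0.09, adjusted p = 0.0104) fell with every treatment. Cohesin genes fell in 6 of 12 with 5azadC and in 5 of 12 with VX680 and with both, and 0 rose. With VX680 the loader subunit Mau2 (-0.52 ± 0.09, adjusted p = 0.000415), the regulator Pds5b (-0.44 ± 0.10, adjusted p = 0.00327) and the ring subunit Stag2 (-0.46 ± 0.12, adjusted p = 0.00589) fell. Of the 3 subunits that set condensin II apart, Ncapd3 fell with 5azadC (-0.56 ± 0.11), VX680 (-0.63 ± 0.11) and both (-0.63 ± 0.11), Ncapg2 fell with 5azadC (-0.30 ± 0.11), and Ncaph2 had values of -0.02 throughout.

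Of the calls named for these other genes, several were not kept when a single library was left out. With VX680, Cenpb did not pass once untreated replicate 1 (adjusted p = 0.261), VX680 replicate 1 (0.125) or VX680 replicate 2 (0.102) was left out, and Anapc5 without the same libraries (0.0969, 0.0705 and 0.0717). Anapc2 (0.0676 and 0.0969) and Stag2 (0.0812 and 0.0892) lost theirs without untreated replicate 1 or VX680 replicate 1, and Cenpo without VX680 replicate 2 (0.0899). With 5azadC, Cenpo lost its call without either untreated replicate (0.0887 and 0.0706) or 5azadC replicate 1 (0.0719). The 5azadC call of Anapc2 was lost without untreated replicate 1 (0.0621), as were those of Anapc5 (0.0766) and Cdc20 (0.0914). Ncapg2 lost its 5azadC call without any library other than untreated replicate 2 and 5azadC replicate 1 (from 0.0612 to 0.298). With both drugs Anapc5 was not called without untreated replicate 1 (0.123) or either combination replicate (0.093 and 0.0539). Hjurp, Ncapd3 and Cdkn1a kept their calls in every alternative.

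Genes of other cell-cycle phases were counted the same way, beside the same shares of all genes. Of 16 replication genes, 1 rose and 5 fell with 5azadC, 1 rose and 6 fell with VX680, and 1 rose and 3 fell with both, the last a smaller share than the 27.3% of all genes. The helicase gene Mcm6 (-0.63 ± 0.09) and the sliding clamp gene Pcna (-0.54 ± 0.13) fell with VX680, while Rrm2, of ribonucleotide reductase, rose by 0.62 ± 0.09. Of 15 regulators of cell-cycle transcription, 3 rose and 3 fell with 5azadC, 3 rose and 6 fell with VX680, and 5 rose and 5 fell with both. The repressor genes E2f7 (-0.47 ± 0.11) and E2f8 (-0.71 ± 0.15) and the pocket protein gene Rbl1 (-0.49 ± 0.10) fell with VX680. Among 8 genes of G1 cyclins and kinases, 5 rose and 1 fell with 5azadC, 2 rose and 1 fell with VX680, and 4 rose and 2 fell with both. The cyclin D genes Ccnd1 (3.0 ± 0.12) and Ccnd2 (1.97 ± 0.13) rose with VX680, and Cdk2 fell (-0.40 ± 0.09).

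All 10 p53 targets rose with each treatment, with a median of 1.802 for 5azadC and 1.66 for VX680. Cdkn1a, the Cdk inhibitor p21, gave 2.78 ± 0.10, 3.08 ± 0.10 and 3.29 ± 0.10 with 5azadC, VX680 and both drugs. All 3 drug groups thus had higher Cdkn1a, and in the 5azadC group this stood beside 8 falls and 3 rises among the mitotic genes, in the VX680 group beside 3 falls and 16 rises. The part of the p53 targets in these changes was not tested.

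Reads that carry a strain variant were assigned by the authors to the mus or the cas allele, between 26.1% and 26.9% of the reads of each library. Enough such reads were present to test 43 of the 44 genes; Ect2 had 12 over all libraries. No drug changed the mus to cas ratio of any member at an adjusted p under 0.05. Over 10301 genes 0.282%, 0.379% and 0.515% were called with 5azadC, VX680 and both drugs, so such calls were rare among all genes as well. At an unadjusted p under 0.05 there were 5, 3 and 1 members, with smallest adjusted p of 0.649, 0.514 and 0.434. The share of all genes at that unadjusted p was not counted. No second tool was run on the alleles. The changes in total level described above thus came without a detectable shift between the alleles at this depth.

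In untreated cells the 2 alleles differed in 19 of 43 members, against 38.2% of all genes tested; without untreated replicate 1 or 2 the count was 12. The 19 members were near the share of all genes. The test was against equal reads of the 2 alleles. Over all tested genes the median log2 ratio of mus over cas was -0.20, and over the members -0.005. A call at a ratio near that of all genes need not be particular to the gene. Pooled over all libraries, 35 members had between 30% and 70% mus reads. In all, 5 members exceeded 90% mus, and all 5 lie on chromosome 2: Casc5 (1148 of 1154 reads), Cdc25b (1241 of 1252), Ckap5 (1566 of 1584), Ncaph (1125 of 1159) and Bub1 (595 of 628). On the same chromosome Bub1b was nearly all cas, with 31 mus reads of 1978, while Ube2c (49.7% mus of 6744 reads) and Spc25 (61.9% of 1474) were read from both alleles. Ube2s on chromosome 7 was also mostly cas, with 19 mus reads of 317.

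The skew extended to other genes of chromosome 2. On chromosome 2, 23.5% of 780 genes were over 90% mus, against 0% to 2.46% on each of the 18 other autosomes. Chromosome 3 had a median of 64.1% mus, where 17 other autosomes lay between 39.3% and 50.5%; of the members there, Ccna2 had 69.6%, Smc4 63.8% and Cenpe 44.4%. The cause of either skew was not tested. All 4 groups share the skew. Members on chromosome 2 near 0% or 100% mus could move toward 50% only if the other allele is still present in the cells. Its presence was not tested. Few reads of these members came from the other allele, so a change of the ratio was measured imprecisely. With 5azadC its log2 change was -2.69 ± 2.08 for Casc5, against -0.13 ± 0.17 for Cdk1, which had 45.8% mus, and neither was called.

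**Figure D5:**
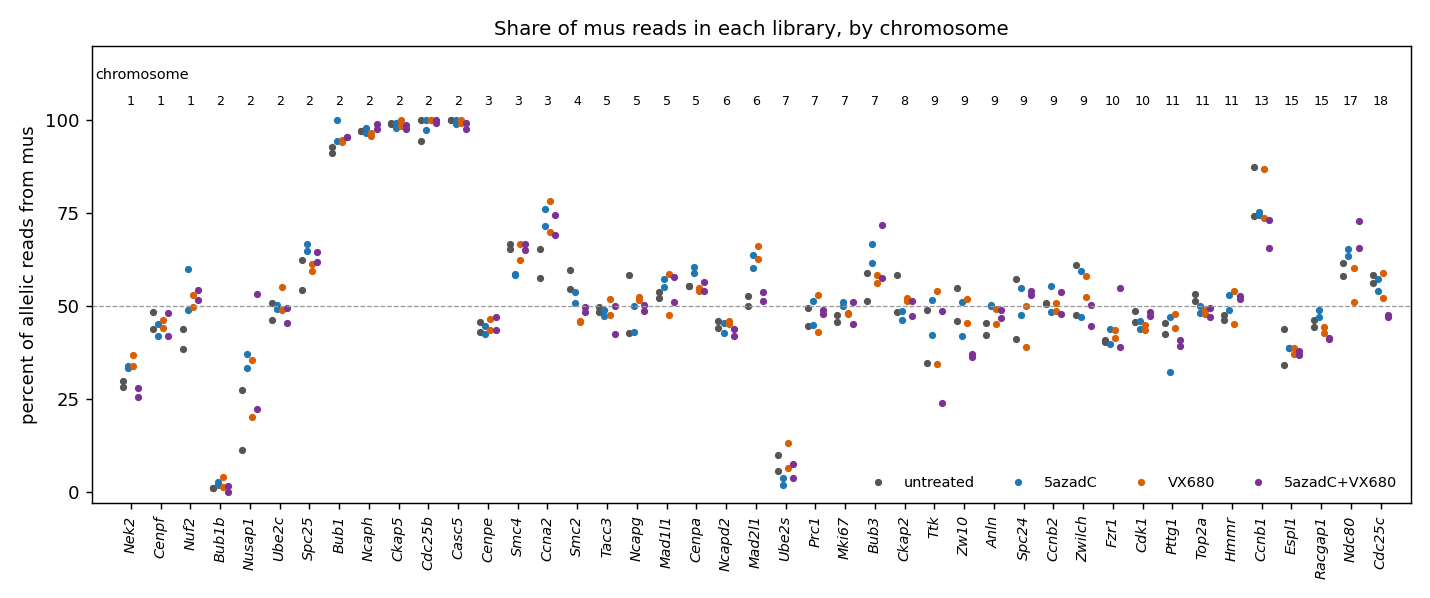
Share of allelic reads from the mus allele in each library for the 43 members with enough reads, ordered by chromosome (numbers above); colours mark the 4 groups and the dashed line 50%. The 5 genes Casc5, Cdc25b, Ckap5, Ncaph and Bub1 on chromosome 2 sit near 100%, and Bub1b and Ube2s near 0%; in Nusap1, which had 15 to 45 allelic reads per library, single libraries range from 11.1% to 53.3%.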

How the data were processed

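Total RNA of 8 samples was sequenced and grouped by the treatment in the sample labels. The submitters' processing notes name TopHat2 2.0.10, HOMER 4.8, edgeR and the genome build mm9, without saying what each was used for. The authors deposited raw composite counts per gene for both alleles together, and raw counts assigned to the mus or cas allele. A length column, per the file headers, gave the divisor for CPM per kilobase. The authors' deposited normalized signal equals the counts times 1 factor per library, tested on the values. The 8 columns that add mus and cas reads were not used, and the authors' comparison tables were not used here. The reference annotation follows another build, so no coordinates or sequences are given.

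For composite counts, edgeR 4.0.16 (R 4.3.3) was run with filterByExpr, which kept 12643 genes, TMM, 1 mean per group over all 8 libraries, quasi-likelihood F tests, and Benjamini-Hochberg adjustment over all 12643 genes with a threshold of 0.05. Log2 fold changes carry the SE from that fit. CPM divides reads by the TMM-scaled library size, where 1 CPM was 6.82 to 11.0 reads. There were 7 comparisons. For the allelic counts, the edgeR model held 1 term for each library and 1 mus term for each group; 10301 genes averaged 10 or more allelic reads per library. The tests were first tested on simulated data. Alternatives were RLE scaling, no filter, a filter of 10 reads in every library of a group, a replicate block, DESeq2 1.42.0, limma 3.58.1 on log2 of the authors' signal plus 1, the compared groups alone, and each library left out.

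The members, the lists and the alternatives were chosen with earlier results of these data known. Values in every library are given for up to 3 members of each role with the smallest p against untreated cells, for members called in the interaction, and for members called against the direction of most of their role group. From each other list up to 3 genes with the smallest p for VX680 are named.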

Additional observations from a re-analysis of the deposited data

Results flagged for a closer look

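In 3 of the 44 genes the effect of VX680 differed with and without 5azadC, by the interaction test in edgeR over 12643 genes; of all genes tested, 15.6% were called (4.95% positive and 10.6% negative). Nusap1 had a difference of 0.54 ± 0.14 (adjusted p = 0.0186), Mki67 of 0.47 ± 0.13 (adjusted p = 0.0234) and Spc24 of 0.69 ± 0.20 (adjusted p = 0.0323) on the log2 scale. In each, VX680 added to 5azadC gave a higher value than VX680 added to untreated cells: for Spc24 the effect was 0.11 ± 0.14 with 5azadC and -0.58 ± 0.14 without, for Mki67 0.18 ± 0.09 and -0.29 ± 0.09, and for Nusap1 0.51 ± 0.10 and -0.03 ± 0.10. Without any single VX680 or combination library none of the 3 was called. Mki67 and Nusap1 were also not called without untreated replicate 1 (adjusted p = 0.0571 and 0.0684). Spc24 was not called without untreated replicate 2 (0.1085), without 5azadC replicate 1 (0.0602) or by DESeq2 (0.0706).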

How the results depend on the processing

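Of 96 member calls over the 7 comparisons of total expression, 45 kept their direction and stayed under the threshold in every alternative run, and none changed direction. Those kept against untreated cells were 10 rises with VX680 (Ube2c, Pttg1, Bub3, Ect2, Anln, Prc1, Cdk1, Cenpa, Hmmr and Nek2), 13 rises with both drugs, the falls of Mki67 and Nusap1 with 5azadC and that of Spc24 with VX680. Falls with both drugs numbered 1 in place of 2 with RLE scaling, the filter of 10 reads, the replicate block and limma on the authors' signal, which also gave 1 fall in place of 3 with VX680. Of 57 calls against untreated cells among the genes of other lists named in the text, 39 were kept in every alternative and none changed direction. With no filter 5 interactions were positive in place of 3. DESeq2 gave 1 rise with 5azadC in place of 3. Fits on the 2 compared groups gave 1 rise and 3 falls with 5azadC, and 2 rises and 1 fall for both drugs against VX680 in place of 0.

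Leaving out each library in turn gave these ranges of members higher and lower: 0 to 4 and 4 to 11 for 5azadC, 10 to 20 and 1 to 3 for VX680, 13 to 25 and 0 to 2 for both drugs, 11 to 27 and 0 to 1 for both drugs against 5azadC, 0 to 1 and 0 to 0 for both against VX680, 8 to 23 and 0 to 0 for VX680 against 5azadC, and 0 to 6 and 0 to 1 for the interaction. Allelic differences in untreated cells ranged from 12 to 20 members, and 20 were called with a minimum of 20 allelic reads; changes with a drug stayed at 0. In such fits the lone library of a group is assumed to vary like the others. Without any one VX680 or combination library, each of the 7 comparisons also called fewer genes over all tested genes. A lost member call is therefore not particular to the members. The cause of these shifts was not tested.

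Deviations of same-numbered libraries correlated little over all genes, between -0.0622 and 0.0326. Whether such libraries shared a culture or day cannot be told from this, and the labels do not say. With the replicate block, members higher and lower were 3 and 8 for 5azadC, 15 and 3 for VX680, 22 and 1 for both drugs, 24 and 0 for both against 5azadC, 0 and 0 for both against VX680, 16 and 0 for VX680 against 5azadC, and 4 and 0 for the interaction. Ube2s, with 37 reads in its sparsest library, and Ect2, with 12 allelic reads, are limited by depth.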
